A study of Sus scrofa with 9 samples.

Results

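Small RNA was measured in the longissimus dorsi, a long back muscle, of female Jinhua pigs at day 180 and at 7 years of age. These are the 3 libraries labelled 180 days and the 3 labelled 7 years, 6 of the 9 libraries of a series on 5 stages of muscle development, and they were taken by their labels. Both ages share the sex, the breed, the muscle and the library protocol, and no genetic change or treatment is named. The study drew on 15 pigs in all. The sources used here do not say which pigs made which library, so each p-value reflects variation between libraries and may be partly technical. Copies were counted per miRNA arm, which is what a precursor hairpin yields from its 5p or its 3p side. One deposited table holds 100 conserved arms, named after known miRNAs, and the other 426 putative new arms, named here PN with the start of their locus and merged to 395 where sequence and copies were the same. Of these, 67 conserved and 284 putative new arms were listed in at least 1 of the 6 libraries. Levels are given as RPM, the copies among 1000000 high-quality reads of a library.

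A miRNA is a short RNA that guides the silencing complex to messenger RNAs that pair with its seed, bases 2 to 8 from the 5′ end. Many miRNAs are cut from shared primary transcripts, so neighbours are often made together. The imprinted DLK1-DIO3 region holds one of the largest mammalian miRNA clusters, expressed from the maternal chromosome and most active in fetal tissue. A second cluster, around miR-188 and miR-660, lies on the X chromosome inside the gene CLCN5 in human and mouse. In mouse muscle stem cells miR-431 is known to target Pax7, and the miR-26 family targets the histone methyltransferase Ezh2 in mouse myoblasts.

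The sequences below are those of the arms that were called different between the ages and of the other most abundant conserved arms. They are the consensus sequences of the deposited tables, 5′ to 3′, with the seed in capitals.
miR-660-5p: tACCCATTgcatatcggagttg
miR-409-3p: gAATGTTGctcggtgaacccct
miR-431-5p: tGTCTTGCaggccgtcatgc
PN-35031369-5p: cGGGGATTgcaattattc
miR-26b-5p: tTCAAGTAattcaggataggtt
miR-411c-5p: gGTTGATCagagaacatacatt
No seed is shared among these 6. For miR-431-5p the tables list another most abundant sequence in 7 years replicates 2 and 3, shown next because it bears on the level at 7 years.
miR-431-5p in 7 years replicates 2 and 3: tCCCTGAGaccctaacttgtgaa
This sequence has 23 nt, shares a stretch of no more than 4 nt with the miR-431 precursor, and has another seed. In the 3 libraries of day 180 and in 7 years replicate 1 the listed sequence was the consensus of 20 nt.

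The libraries held 9024703 to 12259667 high-quality reads at day 180 and 3720989 to 9389375 at 7 years. The copies of both tables made up 0.251% to 0.312% of these reads at day 180 and 0.147% to 0.192% at 7 years, so the comparison covers a small part of each library. Cells of the tables were empty for 57.3% of the conserved and 77.2% of the putative new values of these 6 libraries. An empty cell was counted as 0 and may stand for a few copies. Whether some stand for more was not tested: miR-301a-3p had 419 and 242 copies in day 180 replicates 1 and 2 and an empty cell in replicate 3. No library was a second copy of another: replicate pairs gave a chi-square of 11.8 to 31.9 per degree of freedom over arms. The labels name no batch or date. The arms of miR-6529 stayed out of sums and tests, because 7 years replicate 3 lists their sequence without a copy number. Muscle-enriched miRNAs, which would mark the tissue, were nearly absent from the tables: miR-1-2-3p and miR-1a-2-5p summed to between 0 and 0.767 RPM at day 180 and between 0 and 1.07 at 7 years, and miR-208a was listed at neither age. The sources used here do not say whether other muscle miRNAs were kept elsewhere. The blood marker miR-223-3p, of myeloid cells, stood at 3.67, 7.57 and 2.22 RPM at day 180 and at 3.85, 1.34 and 0.959 at 7 years, with overlapping ages. The epithelial markers miR-141-3p and miR-96-5p, the listed ones of 6, summed to between 1.25 and 2.20 RPM at day 180 and between 0.806 and 1.12 at 7 years. These sums did not overlap, but each arm alone did, at 3 to 24 copies in the libraries that listed it. The endothelial and smooth muscle markers had no arm in the tables, and the 2 arms of pancreas, liver, gut and brain markers were at 0. The part of cell makeup in the results below was not tested.

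The old muscle had fewer copies of the measured miRNAs per read than the young adult muscle, in both tables. Conserved arms summed to 2402, 1945 and 2172 RPM in the day 180 libraries and to 1546, 1280 and 1162 RPM in those of 7 years. Every library of 7 years was below every library of day 180, and the mean was 1.63-fold lower (2173 ± 228 against 1329 ± 197, SD, n = 3 each). Putative new arms summed to 715.7, 567 and 553 RPM at day 180 and to 374, 299 and 310 RPM at 7 years. These sums did not overlap either, and the mean was 1.87-fold lower at 7 years (612 ± 90.3 against 327 ± 40.5, SD, n = 3 each). Each of these differences had a two-sided exact permutation p of 0.1, the smallest that 3 libraries against 3 allow (adjusted p = 0.125 over 5 tests). Levels per read are shares of a library and give no absolute amount of these miRNAs. In whole tissue, fewer cells of a type and less RNA per cell cannot be told apart.

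**Figure D1:**
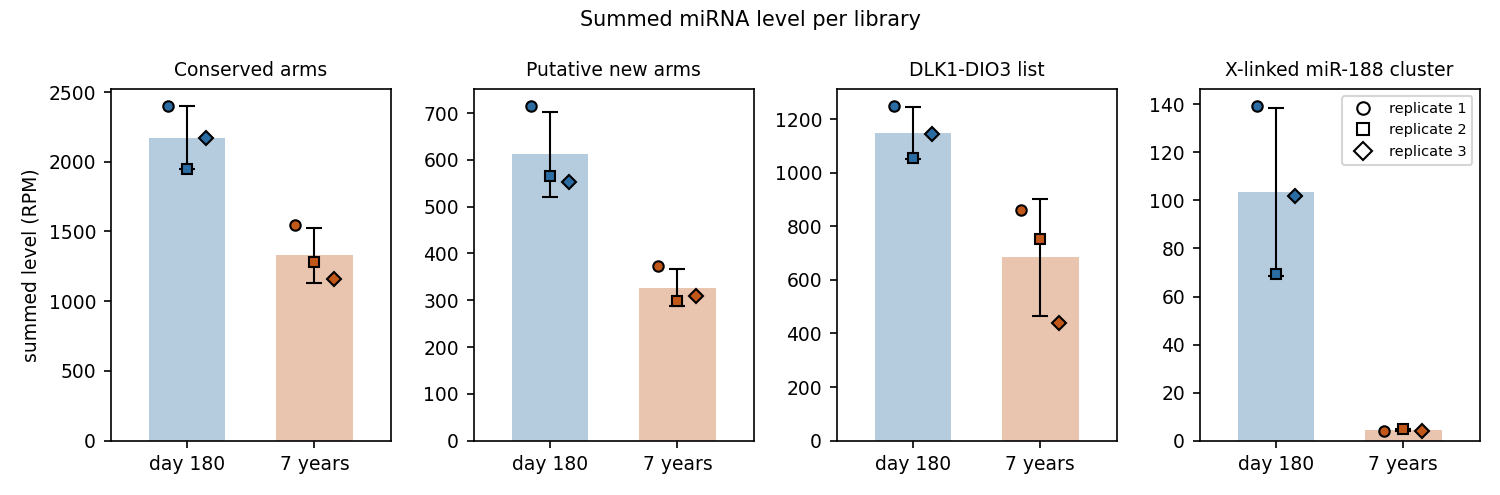
Summed level in RPM (vertical axes, each from 0) of 4 sets of arms at day 180 and at 7 years; bars are means, error bars SD over 3 libraries, and circle, square and diamond are replicates 1, 2 and 3. In all 4 sets the 3 libraries of 7 years lie below the 3 of day 180, with the widest gap for the X-linked miR-188 cluster (104 ± 35.05 against 4.35 ± 0.426 RPM).

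The number of arms was lower at 7 years as well above a common RPM floor, with libraries left at their own depth. At a floor of 0.806 RPM, the level that 3 copies give in the shallowest library (7 years replicate 2), 88, 75 and 78 arms reached the floor at day 180 and 51, 63 and 52 at 7 years (exact permutation p = 0.1, adjusted p = 0.125). At the level of 10 copies in that library, 2.69 RPM, the counts were 44, 45 and 46 against 28, 28 and 29. Neither set of counts overlapped between ages.

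A few arms held most of the conserved copies, and their make-up differed between the ages. Together, miR-431-5p, miR-411c-5p and miR-26b-5p made up 77.2%, 80.2% and 79.2% of conserved copies at day 180 and 90.6%, 87.1% and 83.7% at 7 years. The share of miR-431-5p was 30.1%, 28.2% and 27.3% at day 180 and 11.6%, 14.4% and 9.502% at 7 years. That of miR-411c-5p went the other way, from 13.7%, 19.1% and 19.5% to 39.02%, 40.5% and 22.8%. Each of these 3 sets of shares was without overlap between the ages. The share of miR-26b-5p, the most abundant arm, was 32.9% ± 0.508 at day 180 and 41.2% ± 9.66 at 7 years (SD, n = 3 each), and the ages overlapped. Shares within a library sum to a whole, so they show unequal change and not which arm changed.

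**Figure D2:**
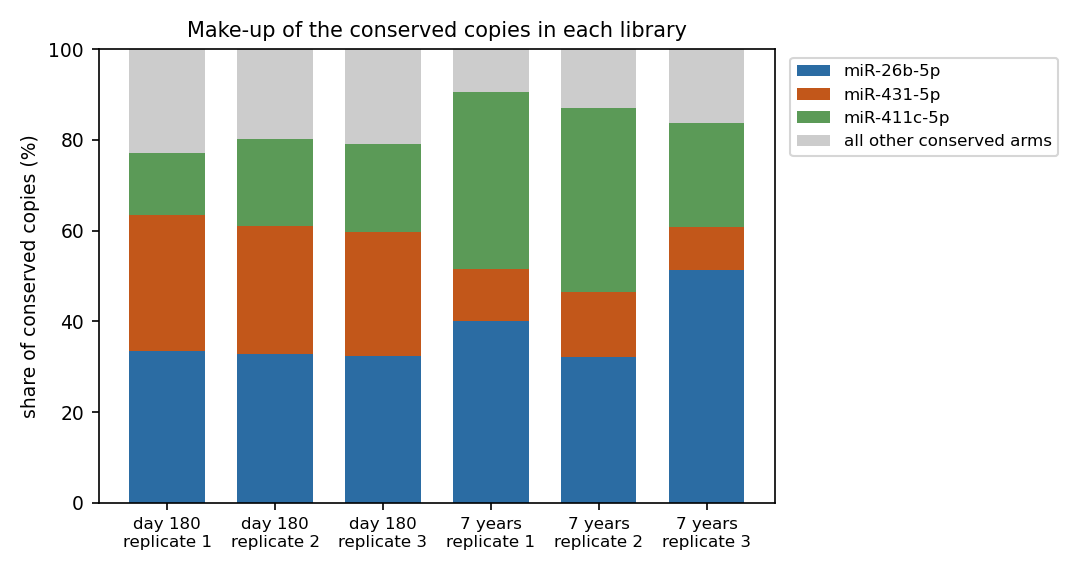
Share of the conserved copies (percent, vertical axis) held by 3 arms and by all other conserved arms in each of the 6 libraries. The part of miR-431-5p is 27.3% to 30.1% at day 180 and 9.502% to 14.4% at 7 years, and that of miR-411c-5p is above 22% at 7 years and below 20% at day 180. In 7 years replicates 2 and 3 the copies of miR-431-5p are listed beside a sequence that is not in its precursor.

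Arm by arm, 4 fell per read at 7 years and none rose among the 60 arms with enough copies to be tested (26 conserved, 34 putative new; edgeR quasi-likelihood test on high-quality reads, Benjamini-Hochberg adjusted p under 0.05). The share called lower was 6.67% and the share called higher 0%. The filter on low counts bears on these shares. Of the 60 arms, 9 had no library of 7 years at the level it asks for, among them the called miR-409-3p and PN-35031369-5p. These 9 passed it through day 180 alone, and 0 arms through 7 years alone. Passing took 3 libraries at that level. Further arms had 3 libraries of day 180 but only 1 (such as miR-301b-3p) or 2 (such as PN-76693897-3p) of 7 years there, and needed day 180 to pass. Beyond the 4 called arms, 16 had an unadjusted p under 0.05, all with lower values at 7 years, and adjusted p-values from 0.0764 to 0.0876. With TMM factors, which set the bulk of the arms equal, 2 fell (3.33%) and 0 rose (0%), and 11 arms had an unadjusted p under 0.05, of which 6 were lower and 5 higher at 7 years. DESeq2's Wald test called 16 lower and none higher. Without 7 years replicate 1 the count was 11, and without 7 years replicate 3 it was 13, of which 1 was higher.

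miR-660-5p, of the X-linked cluster (Sscrofa10, X, 48640809 to 48640903, plus strand), fell most among the arms listed at both ages whose change was called. Its level was 138, 68.1 and 99.5 RPM in the day 180 libraries and 4.17, 4.84 and 4.05 RPM in those of 7 years, where it was still counted 26, 18 and 38 times. Every library of 7 years was far below the lowest of day 180, a mean 23.4-fold lower. The log2 fold change was -4.55 (SE 0.37, edgeR adjusted p = 0.000229) per read and -3.41 (SE 0.36, edgeR adjusted p = 9.9e-05) with TMM factors. Its call held in all 22 other settings tried.

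miR-409-3p, an arm of the imprinted cluster, was read in every young adult library and in no old one. It had 339, 147 and 192 copies at day 180, or 27.7, 14.1 and 21.3 RPM, and no library of 7 years listed it. At the mean level of day 180 the libraries of 7 years would have held 78.2 to 197 copies. If an empty cell means fewer than 3 copies, the old libraries were at least 39.2-fold lower, against their mean floor of 0.536 RPM. Whether the empty cells of this arm meet that condition was not tested. The edgeR adjusted p was 0.000625 per read and 9.9e-05 with TMM factors. It passed the filter on low counts through day 180 alone. Its call held in all 21 other settings tried.

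miR-431-5p, also of the DLK1-DIO3 cluster (Sscrofa10, chromosome 7, 132097559 to 132097659, plus strand), fell per read. Its level was 724, 548 and 592 RPM at day 180 and 180, 185 and 110 RPM at 7 years, a mean 3.93-fold lower and without overlap. The log2 fold change was -1.97 (SE 0.27, edgeR adjusted p = 0.00243) per read. With TMM factors it was -0.83 (SE 0.31) and no longer called (edgeR adjusted p = 0.189), as with DESeq2 size factors (edgeR adjusted p = 0.0834). The 687 and 1037 copies of 7 years replicates 2 and 3 stand beside the sequence that is not in the precursor, so how many of these copies are miR-431-5p cannot be told from the tables. In 7 years replicate 1, where the listed sequence was that of the precursor, the level was 180 RPM, below every library of day 180.

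PN-35031369-5p (Sscrofa10, chromosome 14, 35031369 to 35031627, plus strand), a putative new arm of 18 nt, fell per read from low levels. It had 24, 13 and 37 copies at day 180, or 1.96, 1.25 and 4.10 RPM, and was listed in no library of 7 years (edgeR adjusted p = 0.0352). Its mean at day 180 would give 9.06 to 22.9 copies in the libraries of 7 years. It too passed the filter through day 180 alone, and its call held in 8 of 18 other settings, not with TMM factors (edgeR adjusted p = 0.0714) and not without any 1 of the day 180 libraries or without 7 years replicate 2 (edgeR adjusted p from 0.0772 to 0.161).

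**Figure D3:**
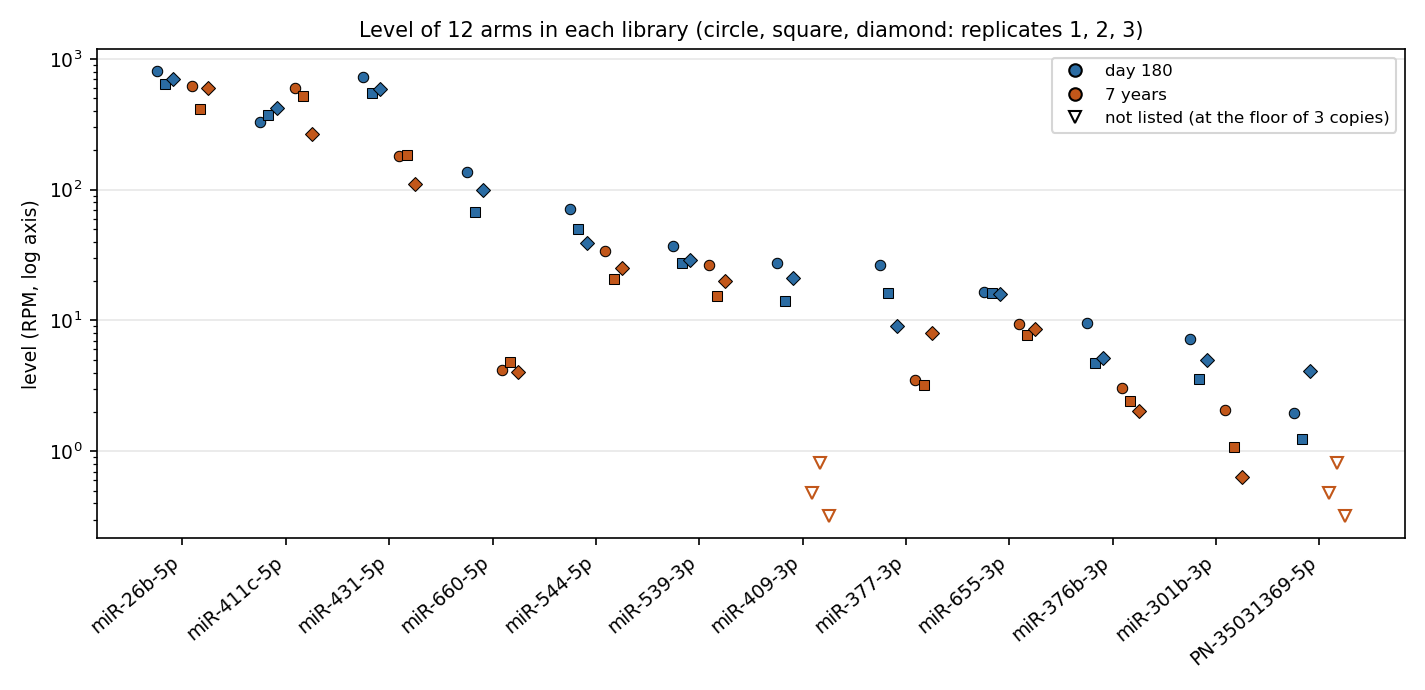
Level of 12 arms in each library in RPM (vertical log axis); blue is day 180, orange 7 years, the 3 symbols are replicates, and open triangles mark libraries that did not list the arm, drawn at their floor of 3 copies. The ages are apart for miR-660-5p and miR-409-3p by more than 10-fold, lie close for miR-539-3p and miR-26b-5p, and overlap for miR-411c-5p.

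The fold changes lay around a shift shared by most arms. The median log2 fold change of the 60 arms was -1.11 per read and -0.01 with TMM factors. Per read 55 were negative and 5 positive, and with TMM factors 30 were negative and 30 positive. TMM factors ran from 1.37 to 1.65 at day 180 and from 0.619 to 0.750 at 7 years, and moved log2 fold changes by a median of 1.12. A call with TMM factors is thus a difference from the bulk of the arms, and a call per read is a difference in the share of high-quality reads. Of the 35 tested arms listed in all 6 libraries, 32 had a lower and 3 a higher mean RPM at 7 years, with a median log2 ratio of -0.91.

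**Figure D4:**
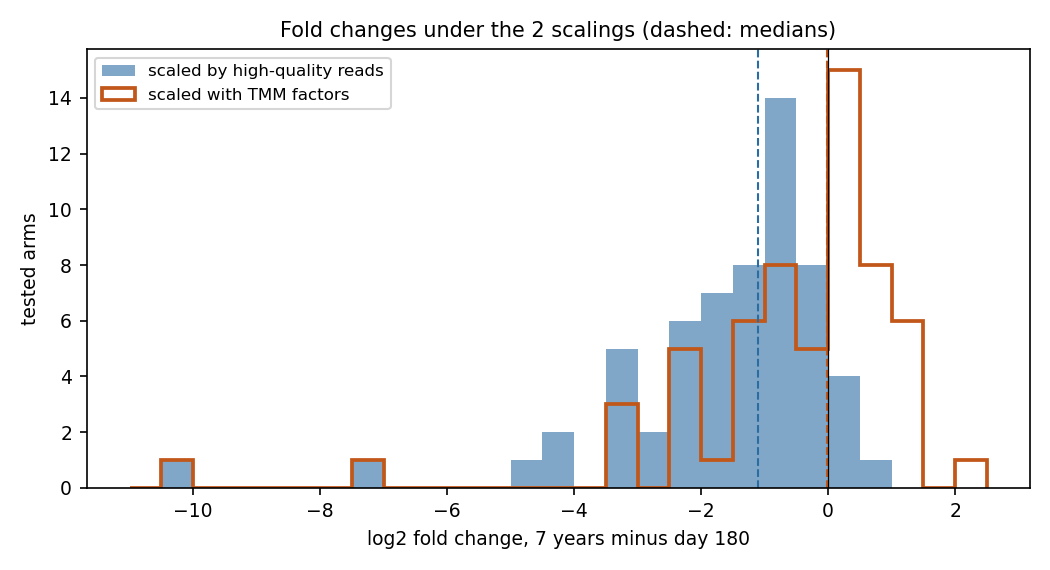
Number of tested arms (vertical axis) by log2 fold change of 7 years minus day 180 in steps of 0.5 (horizontal axis), scaled by high-quality reads (filled) and with TMM factors (outline); dashed lines are medians. The whole distribution moves from a median of -1.11 to one of -0.01, and the outlying arms at the left stay apart under both scalings.

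Without a test, 32 of the 60 arms (53.3%) had every library of 7 years below every library of day 180, and 0 (0%) the reverse. These were 14 of 26 conserved and 18 of 34 putative new arms. The filter bears on this count: 9 of the 32, among them miR-409-3p, PN-35031369-5p and miR-330-5p, were below the filter level of 1.09 RPM in every library of 7 years and passed through day 180 alone. Among the 51 arms with a library of 7 years at that level, 23 (45.1%) were lower without overlap. Some of these 23, such as miR-301b-3p and miR-454-3p, had only 1 library of 7 years at that level and passed with the 3 of day 180. The reverse, every library of 7 years above every library of day 180, occurred in PN-9505866-5p, which had too few copies to be tested. PN-24885174-5p counts among the 32, although its locus overlaps between the ages once its entries are joined.

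**Figure D5:**
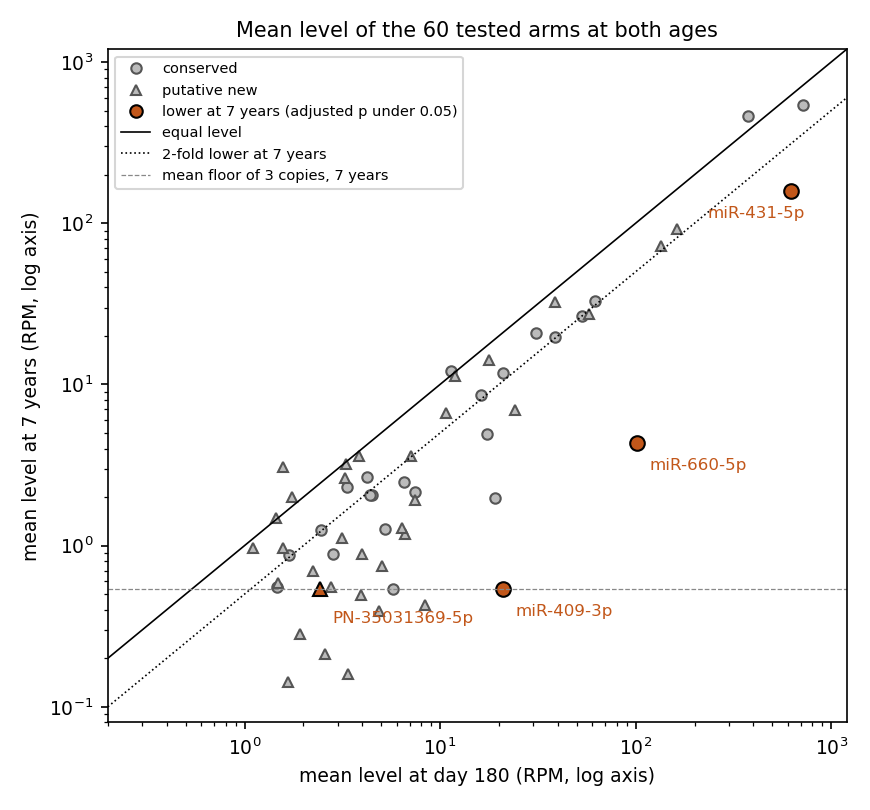
Mean level at 7 years against mean level at day 180 in RPM (both log axes) for the 60 tested arms; circles are conserved and triangles putative new arms, those with no listed copy at an age are drawn at that age's mean floor, and the 4 arms called lower per read are orange and named. Most points lie below the line of equal level, and miR-660-5p and miR-409-3p lie farthest below it among arms above 10 RPM at day 180.

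The DLK1-DIO3 list held 28 arms of the tables, assigned by miRNA number. At day 180 19 of them were listed, and at 7 years 8, or 42.1% of the former number. The same ratio was 64.5% for all conserved arms (62 and 40) and 53.5% for all arms (303 and 162), in libraries that were mostly shallower at 7 years. The libraries listed 17, 18 and 15 of them at day 180 and 7, 8 and 8 at 7 years. Their summed level was 1250, 1054 and 1143 RPM at day 180 and 860, 754 and 440 RPM at 7 years, without overlap (exact permutation p = 0.1, adjusted p = 0.125). In 7 years replicates 2 and 3 this sum includes copies of miR-431-5p listed beside a sequence that is not in its precursor. Of 8 tested members, 2 fell per read (miR-409-3p and miR-431-5p), none rose and 6 were not called, where 6.67% of all tested arms fell. Of these 2, miR-409-3p passed the filter through day 180 alone. The members had a median log2 fold change of -1.19 against -1.11 over all tested arms. With TMM factors 1 fell, miR-409-3p (3.33% of all tested arms), and the members were 4 negative and 4 positive. Every library of 7 years lay below those of day 180 for 7 of the 8, against 53.3% of all tested arms.

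The sum of this cluster rested on a pair of arms. Without miR-431-5p it was 526, 506 and 551 RPM at day 180 and 680, 569 and 329 RPM at 7 years, with overlapping ages (528 ± 22.5 against 526 ± 179, SD, n = 3 each; exact permutation p = 1). Most of that remainder was miR-411c-5p, at 328, 371 and 425 RPM at day 180 and 603, 519 and 265 RPM at 7 years. It was higher than at day 180 in 2 old libraries and lower in 7 years replicate 3 (log2 fold change 0.30 per read, SE 0.32, edgeR adjusted p = 0.475; 1.44 with TMM factors, SE 0.39, edgeR adjusted p = 0.0714). With both left out, the other members summed to 198, 134 and 126 RPM at day 180 and 76.6, 50.3 and 64.1 RPM at 7 years, a mean 2.40-fold lower and without overlap.

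Among those other members, miR-655-3p was the steadiest between replicates, at 16.4, 16.3 and 15.96 RPM at day 180 and 9.46, 7.79 and 8.63 RPM at 7 years. The ages were well apart, a mean 1.88-fold lower, and the test per read did not reach the threshold (log2 fold change -0.91, SE 0.28, edgeR adjusted p = 0.0764; 0.21 with TMM factors, edgeR adjusted p = 0.778). miR-377-3p stood at 26.8, 16.2 and 9.09 RPM at day 180 and at 3.53, 3.22 and 7.99 RPM at 7 years, 3.53-fold lower on average and not called (log2 fold change -1.80, SE 0.55, edgeR adjusted p = 0.0764). Its values were the most spread of this group, and day 180 replicate 3 lay close to 7 years replicate 3. miR-376b-3p stood at 9.63, 4.70 and 5.21 RPM and at 3.04, 2.42 and 2.02 RPM, without overlap (log2 fold change -1.38, SE 0.49, edgeR adjusted p = 0.0837). For miR-544-5p the level was 70.8, 50.3 and 38.9 RPM and then 33.8, 20.7 and 25.1 RPM, without overlap (edgeR adjusted p = 0.0837). Neither of these was called. miR-539-3p was nearest to equal, at 37.03, 27.4 and 28.8 RPM and at 26.8, 15.3 and 20.02 RPM (edgeR adjusted p = 0.209). With TMM factors the log2 fold changes of miR-655-3p, miR-544-5p and miR-539-3p turned positive, while those of miR-377-3p (-0.70) and miR-376b-3p (-0.22) stayed negative.

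The rarer members of the cluster were seen almost only in the young adult libraries, which were mostly the deeper ones. Listing at day 180 alone was common over all arms: 26 of 67 conserved arms (miR-6529 included) and 162 of 284 putative new arms. miR-485-3p, miR-411c-3p, miR-412-5p, miR-541-3p, miR-377-5p and miR-376d-3p were each listed in all 3 libraries of day 180, at means from 0.288 (miR-376d-3p) to 1.77 RPM (miR-412-5p), and in none of 7 years. At the day 180 level the shallowest library of 7 years would have held 6.58 copies of miR-412-5p, 5.03 of miR-411c-3p, 4.70 of miR-485-3p and 3.28 of miR-541-3p, above the floor of 3 copies, and 2.58 of miR-377-5p and 1.07 of miR-376d-3p, below it. For miR-377-5p the other 2 libraries would have held 4.32 and 6.499 copies, above the floor. For miR-376d-3p none would have reached 3 copies, and a loss was not detectable at this depth. None of these 6 had enough copies to be tested in these 6 libraries. miR-485-5p was the exception, listed in 1 library of day 180 and 2 of 7 years, at no more than 0.806 RPM.

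The X-linked miR-188 cluster, of which 3 arms were in the tables, was lower as a whole. miR-188-5p had 16, 5 and 13 copies and miR-188-3p 6, 8 and 7 copies at day 180 (Sscrofa10, X, 48632378 to 48632485, plus strand), and neither was listed at 7 years. At the day 180 level the libraries of 7 years would have held 4 to 10.1 copies of miR-188-5p and 2.52 to 6.36 of miR-188-3p, so the absence of the latter is near the limit of depth. The 3 arms summed to 139, 69.4 and 102 RPM at day 180 and 4.17, 4.84 and 4.05 RPM at 7 years, a mean 23.8-fold lower, and nearly all of it was miR-660-5p. Their share of conserved copies was 4.68% ± 1.12 against 0.332% ± 0.0560 (SD, n = 3 each), without overlap, so the difference was there within the measured miRNAs as well as per read.

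The miR-130, miR-301 and miR-454 family is defined by a shared seed, shown in capitals to let the 3 measured arms be compared.
miR-301a-3p: cAGTGCAAtagtattgtcaaagc
miR-301b-3p: cAGTGCAAtgatattgtcaaagc
miR-454-3p: tAGTGCAAtattgcttatagggt
miR-301b-3p stood at 7.18, 3.55 and 4.99 RPM at day 180 and at 2.08, 1.07 and 0.639 RPM at 7 years, without overlap (log2 fold change -2.04, SE 0.76, edgeR adjusted p = 0.0876). For miR-454-3p the level was 2.04, 1.72 and 1.33 RPM and then 0.641, 0.806 and 1.17 RPM (edgeR adjusted p = 0.291). miR-301a-3p was erratic within both ages, with 419, 242 and 0 copies at day 180 and 0, 0 and 56 at 7 years (edgeR adjusted p = 0.311). None of the 3 was called under either scaling. The family's summed level was 43.4, 28.5 and 6.32 RPM at day 180 and 2.72, 1.88 and 7.77 RPM at 7 years, and the ages overlapped (exact permutation p = 0.2).

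A block of 5 precursors on chromosome 6 (Sscrofa10, 866649 to 870961), which include mir-5105 and mir-716a, gave 10 arms, 9 of them listed at both ages. Its summed level was 118, 110 and 185 RPM at day 180 and 33.3, 92.2 and 90.4 RPM at 7 years, a mean 1.91-fold lower. None of its 7 tested arms was called under either scaling, where 6.67% (per read) and 3.33% (TMM factors) of all tested arms were, so this count is near the background. The block had a median log2 fold change of -0.97 per read and 0.10 with TMM factors. In this block 1 of 7 tested arms had no overlap between the ages, against 53.3% of all tested arms. Only 37.7% ± 18.6 (day 180) and 41.9% ± 15.2 (7 years) of the block's copies had a listed sequence of 20 to 24 nt, the usual miRNA length.

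Of the remaining conserved arms, miR-26b-5p had the highest level at both ages. It stood at 802, 640 and 704 RPM at day 180 and at 618, 411 and 597 RPM at 7 years, without overlap but 1.32-fold lower only (log2 fold change -0.40, SE 0.22, edgeR adjusted p = 0.209). With TMM factors its log2 fold change was 0.73 (SE 0.28, edgeR adjusted p = 0.189), so its direction depends on the scaling. The conserved arms outside the DLK1-DIO3 list, the X-linked cluster and the chromosome 6 block summed to 894, 712 and 742 RPM at day 180 and 649, 429 and 628 RPM at 7 years, 1.38-fold lower on average. miR-330-5p, named here after its values were seen, had 76, 73 and 36 copies at day 180 and 0, 4 and 5 at 7 years (log2 fold change -3.48, SE 1.11, edgeR adjusted p = 0.077). This arm passed the filter through day 180 alone. Chosen in the same way, miR-1842-5p stood at 10.6, 7.28 and 4.54 RPM and at 1.603, 2.42 and 2.45 RPM (edgeR adjusted p = 0.0764).

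Among putative new arms, the most abundant were lower at 7 years by about as much as the bulk. PN-5388442-3p (Sscrofa10, chromosome 5, 5388442 to 5388702, plus strand) stood at 191, 151 and 146 RPM at day 180 and at 131, 75.8 and 71.4 RPM at 7 years (log2 fold change -0.81, SE 0.30, edgeR adjusted p = 0.0876). PN-5388442-5p, listed for the same stretch, stood at 63.5, 60.4 and 49.4 RPM and at 32.4, 31.98 and 17.7 RPM (edgeR adjusted p = 0.0764). PN-7444591-3p (Sscrofa10, chromosome 2, 7444591 to 7444852, minus strand) stood at 173, 120 and 110 RPM and at 82.9, 49.99 and 83.5 RPM (edgeR adjusted p = 0.0837). These 3 did not overlap between the ages and were not called, and with TMM factors their log2 fold changes were 0.34, 0.06 and 0.24. PN-69264044-3p, the next in level, overlapped between the ages (38.5 ± 16.4 against 32.2 ± 16.7 RPM, SD, n = 3 each).

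Some putative new entries hold overlapping sequences under 2 or more names, which can split their copies between libraries. One case is the pair PN-1631-3p and PN-1633-3p, shown because the sequences are shifted copies of each other.
PN-1631-3p: tGGTGCCTgacgtcttggcagt
PN-1633-3p: tGTGGTGCctgacgtcttggca
The first was listed in day 180 replicate 1 and 7 years replicate 3, and the second in the other libraries but for 7 years replicate 2, which listed neither. Joined, they stood at 11.4, 10.2 and 15.1 RPM at day 180 and at 1.28, 0 and 0.639 RPM at 7 years, a mean 19.1-fold lower (edgeR adjusted p = 0.00178 per read and 0.0297 with TMM factors, in fits with overlapping entries joined). The pair was chosen after its values were seen, and it passed the filter through day 180, since 1 library of 7 years reached the filter level. The start of the second lies 2 bases upstream, so the listed seed differs between libraries. In the other direction, PN-24885174-5p was listed with 58, 43 and 27 copies at day 180 and 14 in 7 years replicate 3, and its overlapping entry PN-24885175-5p with 55 and 14 copies in 7 years replicates 1 and 2 alone. Joined, the pair stood at 3.95 ± 0.882 RPM at day 180 and 4.69 ± 3.75 at 7 years (SD, n = 3 each), with overlap and no call. All putative new entries whose consensus sequences shared a stretch of 16 bases were then joined, some of them from different chromosomes. The highest copies in each library were kept. Joining all overlapping entries in this way gave 16 arms lower and none higher among 59 per read. With TMM factors as well, 7 were lower and 4 higher, namely miR-411c-5p (edgeR adjusted p = 0.0372), PN-85376639-3p (0.037), miR-26b-5p (0.0489) and miR-590-3p.

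Listing by age went mostly one way, in libraries that were mostly shallower at 7 years. In all 3 libraries of day 180 and none of 7 years, 13 of 67 conserved and 5 of 284 putative new arms were listed. The DLK1-DIO3 list gave 7 of the 13, from 19 of its arms listed in the 6 libraries. Of the 13, 7 would have reached 3 copies in every library of 7 years at their day 180 level, and of the 5 only PN-35031369-5p. The other 4, PN-4840427-3p, PN-56329408-5p, PN-80161040-3p and PN-9680987-5p, stood at means from 0.375 to 0.789 RPM at day 180. No conserved arm showed the reverse, and 1 putative new arm did. PN-9505866-5p (Sscrofa10, chromosome 5, 9505866 to 9506128, plus strand) had 3, 8 and 6 copies at 7 years and none listed at day 180. If an empty cell means fewer than 3 copies, this arm was at least 3.78-fold higher against the mean floor of day 180.

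Arm usage was compared for conserved precursors alone, and not for putative new hairpins with both arms listed, such as PN-5388442. In 7 conserved precursors, the sum of both arms reached 20 copies in every library. Of these 7, 6 had 5p shares that overlapped between the ages. In all of the 7 but mir-5105 one arm held nearly all copies at both ages, which leaves little room for a difference. The exception to the overlap was mir-411c, whose 5p share was 99.4% to 99.8% at day 180 and 100% at 7 years, where its 3p arm was not listed. Sequences of 20 to 24 nt held 94.5% ± 2.48 of copies at day 180 and 96.3% ± 1.41 at 7 years (SD, n = 3 each; exact permutation p = 0.6). Without the chromosome 6 block the shares were 97.7% ± 0.496 and 98.6% ± 0.585, without overlap. The mean length of conserved copies was 21.2 ± 0.0692 nt at day 180 and 21.8 ± 0.123 nt at 7 years, also without overlap. It includes miR-431-5p, whose listed sequence was longer in 7 years replicates 2 and 3. In 7 years replicate 1, where that arm was listed at 20 nt, the mean was 21.7 nt. The shares of miR-431-5p (consensus of 20 nt; 28.5% against 11.9%) and miR-411c-5p (22 nt; 17.4% against 34.1%) enter this mean. Their part in the difference was not tested. Of 37 conserved arms listed at both ages, 18 had the same most abundant sequence in every library that listed them, and of 79 putative new arms 58. No sequence was shared between the ages for 5 conserved and 9 putative new arms. Of the 5, miR-302b-3p, miR-485-5p, miR-96-5p and miR-1-2-3p had at most 7 copies in any library. miR-6087-3p, of the chromosome 6 block, was the only one of the 5 listed in all 6 libraries, and its forms are shown here for the base at the start that day 180 has in addition.
miR-6087-3p at day 180: cCGAGGGGctctcgcttctggcgcc
miR-6087-3p at 7 years: cGAGGGGCtctcgcttctggcgcc
Each form was listed in all 3 libraries of its age, from 26 to 54 copies at day 180 and 7 to 27 at 7 years.

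The spread between replicates was compared over arms. For the 35 tested arms listed in all 6 libraries, the median SD of log2 RPM was 0.46 at day 180 and 0.50 at 7 years. The SD was larger at 7 years in 26 of the 35, which share the same libraries. Conserved copies numbered 19604 to 29444 in the libraries of day 180 and 4762 to 10913 in those of 7 years. The part of counting error in this spread was not tested. Across the 60 tested arms the log2 fold change had a Spearman correlation of -0.02 with GC content and of 0.01 with length of the consensus sequence, given as a description over arms that share the same libraries. The 4 called arms had GC contents from 44.4% to 60%, and all tested arms from 19.05% to 95.2%.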

How the data were processed

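Small RNA of 10 to 40 nt was selected on a gel and read, library by library, with a Genome Analyzer II of Illumina, per the labels' protocols. The deposited tables give whole counts of copies per arm and library, the most abundant sequence of each arm, the high-quality reads of each library and Sscrofa10 positions, per the file headers. The sources used here do not give the aligner or the rules for calling miRNAs. Members and lists were chosen with earlier results of these data known.

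Counts were tested with edgeR 4.0.16 (R 4.3.3) on the 6 libraries with high-quality reads as library size, filterByExpr (minimum count 10, total 15), robust quasi-likelihood fits and Benjamini-Hochberg adjustment at 0.05. The SE is the absolute log2 fold change over the root of F. Scripts were tested on counts simulated with a common spread for all arms. There the edgeR test recovered 12.1% of 4-fold and 53.3% of 8-fold changes, and 9.38% and 5.88% of its calls were false. An arm that was not called may thus differ between the ages. Alternatives included TMM, DESeq2 1.42.0, other filters and each library left out. For sums, scipy 1.17.1 gave exact permutation tests, two-sided. Lower bounds use a floor of 3 copies per library, and cover counting error only. Putative new arms with equal sequence and copies were merged. miR-6529-5p and miR-6529-3p were left out. Named arms were those called per read or with TMM factors, the 10 most abundant, list members in at least 3 libraries, partner arms of called ones, and putative new arms of 1 age in all 3 libraries.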

Additional observations from a re-analysis of the deposited data

How the results depend on the processing

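The count of 4 calls became 2 with TMM factors, 2 with DESeq2 size factors, 16 with DESeq2's Wald test, 11 without a filter (8 lower, 3 higher), 7 with a stricter filter, 9 with conserved arms alone, 20 with empty cells set to 2 copies and 13 with arms listed in all 6 libraries. It was 16 with overlapping entries joined, 11 with TMM factors and joined entries, and 2 without miR-431-5p, alternatives chosen after seeing the data. Leaving out each library in turn gave 3 to 13. The 3 calls higher without a filter were PN-24885175-5p and both arms of PN-151102625, the latter listed in 7 years replicate 3 alone. The ratio of summed conserved levels, 0.612 of day 180 at 7 years, became 0.755 without miR-431-5p. That of the DLK1-DIO3 list, 0.596, became 0.997 without miR-431-5p and 0.287 without miR-411c-5p. With 1 library left out these ratios ran from 0.562 to 0.650 (conserved) and 0.519 to 0.702 (DLK1-DIO3 list). The ratio for putative new arms ran from 0.497 to 0.585, that for arms at a common floor from 0.641 to 0.723 and that for the share of 20 to 24 nt from 1.004 to 1.027. The cause of these moves was not tested. Deviations of same-numbered libraries of both ages correlated at -0.03, -0.21 and -0.24 over arms. Differently numbered libraries were not compared, so these values cannot settle whether the numbers pair the libraries. With the replicate block 3 arms were called. For single named arms, 508 alternative values stayed on their side of the threshold, 33 newly passed it and 12 lost it, the latter for PN-35031369-5p and miR-431-5p. The floor of 3 copies was at 0.481, 0.806 and 0.320 RPM in the libraries of 7 years, and an arm below it cannot be told from an absent one there.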
